A study of Homo sapiens with 6 samples.

Results

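HMG-box genes encode proteins with a high mobility group box, a fold that binds the minor groove of DNA and bends it. The members described here are the genes to which the deposited tables give the transcription factor family HMG, 38 of 30330 listed genes. By symbol they fall into 12 SOX genes, 3 TCF/LEF genes and 23 other HMG-box genes. SOX proteins bind short AT-rich sites and set cell identity during development. TCF/LEF proteins are the DNA-binding end of the Wnt pathway: they recruit beta-catenin when the pathway is on and Groucho (TLE) corepressors when it is off. The other members are mostly chromatin and nucleic acid architects, among them HMGB proteins, a subunit of the FACT histone chaperone, a mitochondrial DNA packaging factor and subunits of chromatin remodelling and demethylase complexes.

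RNA was sequenced from 3 libraries of H1975/OSI (labelled Drug, here resistant) and 3 libraries of NCI-H1975 (labelled Control). NCI-H1975 is a human lung adenocarcinoma cell line whose growth depends on a mutant epidermal growth factor receptor. The resistant line was derived from it by stepwise exposure to 0.03, 0.1, 0.3, 1 and 3 µM osimertinib, a kinase inhibitor of that receptor. It is 1 selected line, and the labels do not say whether drug was present at harvest or whether replicates were separate cultures, so the p-values reflect how far these 6 libraries scatter, and that scatter may be technical only. In bulk RNA, fewer cells that express a gene and less RNA per cell cannot be told apart. Values are normalized read counts, that is, the reads of a gene scaled by a factor for its library, from 15174126 to 16276518 reads in resistant and 15813497 to 16588479 reads in control libraries. They are given as mean ± SD with n = 3 per group. A gene was called where the limma test across all 24560 tested genes gave a Benjamini-Hochberg adjusted p under 0.05, and fold changes are resistant over control on the log2(value + 1) scale.

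Resistant library 1 stood apart. Comparing recovered reads, it differed from resistant 2 and 3 by a mean chi-square of 12.1 and 13.5 over genes, while resistant 2 and 3 differed by 2.42 and pairs of control libraries by 2.55 to 3.93. Median centring of each library lowered the median fold change of all genes by 0.13, and some of the calls below depend on it. Of the lung adenocarcinoma markers, KRT7 averaged 12803 ± 1139 in resistant and 13355 ± 528 in control libraries and NKX2-1, the lung lineage factor, 461 ± 21.0 and 287 ± 28.1, while the surfactant genes SFTPB and SFTPC were at 8.67 or below in every library. KRT19 (5874 ± 1717 against 12960 ± 420), KRT8 (16385 ± 726 against 23304 ± 690) and KRT18 (7556 ± 151 against 10013 ± 56.7), further keratins of simple epithelium, fell. EPCAM fell to 17.6 ± 2.03, against 379 ± 21.9 in control libraries. Of 8 tested adenocarcinoma markers, 4 fell and 1 rose. The summed level of all 9 was 40558 to 47363 in resistant and 58624 to 61898 in control libraries. The summed level of 6 listed fibroblast markers was 4818 to 5389 and 4434 to 5332, most of it COL1A1, which was not called. Of these 6, 3 rose and 1 fell. COL3A1 (a mean of 11.4 against 2.74), PDGFRB (134 against 100) and LUM (4.22 against 0) rose, and FAP (1.58 against 6.78) fell. LUM passed the filter only through the resistant libraries and so had to differ. The calls of LUM, PDGFRB and FAP ended with DESeq2 on the recovered reads. Of 5 endothelial markers, CDH5 rose (579 ± 105 against 126 ± 3.37) and PECAM1 fell (a mean of 83.3 against 181), with VWF, KDR and TEK at 13.3 or below in every library and a summed level of 570 to 763 against 291 to 332. The haematopoietic markers summed to 282 to 336 against 409 to 418, mostly CD14, and the neuroendocrine markers to 13.8 to 20.7 against 28.9 to 38.0. The part of these markers in the results below was not tested.

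Of the 38 members, 35 passed the filter of at least 1 normalized read in at least 3 libraries. Among these, 6 rose and 15 fell in the resistant line. That is 21 of 35, where 41.5% of all tested genes were called, 20.4% higher and 21.1% lower, and where 49.1% of the 1243 tested genes with any transcription factor family were called. The members' median fold change was -0.32, against 0.01 over all tested genes. A 2-fold change was reached by 2 members upward and 4 downward, against 13.6% of all tested genes in either direction. The groups did not overlap for 22 of the 35, against 50.1% of all tested genes. SOX2 and SOX21 passed the filter only through the control libraries and so had to differ. Without resistant 1 there were 7 rises and 17 falls among the members, and with median centring 4 and 18.

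**Figure D1:**
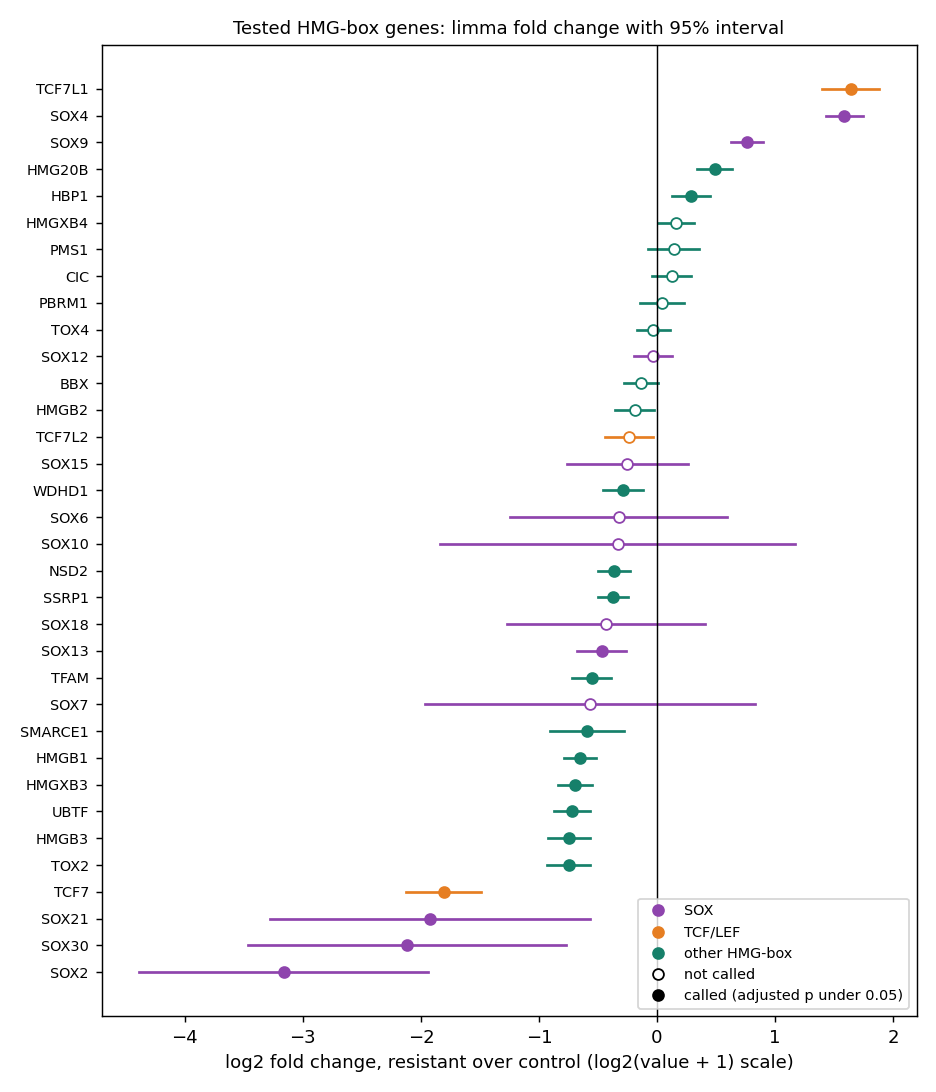
Log2 fold change (resistant over control, horizontal axis) with its 95% limma interval for 34 of the 35 tested HMG-box genes, coloured by subgroup, filled where called. TCF7L1, SOX4 and SOX9 lie at the upper end and TCF7, SOX21, SOX30 and SOX2 at the lower end. The fitted values of SOX2 and SOX21, which had no reads in resistant libraries, are no bounds. Genes of the other HMG-box subgroup lie between -0.75 and 0.49.

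Among SOX genes, SOX4 rose 3.01-fold and SOX9 rose 1.70-fold in the resistant line, while SOX13 fell, as did SOX2, SOX21 and SOX30, which had few reads. SOX12, the other abundant SOX gene, did not pass the test. SOX4 and SOX12 belong to group C of the family, whereas SOX9 belongs to group E. The stretch of coding sequence that encodes the HMG box is printed for SOX4 and SOX9, the SOX genes that rose, to show how far their boxes differ. It was found as the 71 codons that align without a gap between SOX4 and each of the other SOX and TCF/LEF members, in the longest open reading frame of each gene's GENCODE 29 transcripts. Capitals mark bases that differ from SOX4.
SOX4: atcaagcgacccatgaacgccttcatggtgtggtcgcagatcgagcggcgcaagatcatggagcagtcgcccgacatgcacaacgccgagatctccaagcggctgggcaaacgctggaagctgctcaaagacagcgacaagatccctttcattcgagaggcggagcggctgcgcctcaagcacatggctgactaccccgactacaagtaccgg
SOX9: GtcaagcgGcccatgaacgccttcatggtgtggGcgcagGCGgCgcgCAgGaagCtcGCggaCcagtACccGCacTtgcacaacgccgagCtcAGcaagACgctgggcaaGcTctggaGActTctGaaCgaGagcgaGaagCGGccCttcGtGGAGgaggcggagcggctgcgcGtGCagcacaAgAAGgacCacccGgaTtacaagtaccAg

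These are codons 59 to 129 of SOX4 and 105 to 175 of SOX9. SOX9 shares 160 of 213 bases and 45 of 71 encoded residues with SOX4. Over the same stretch SOX9 and SOX10, both of group E, shared 95.8% of residues, and of this pair SOX9 was abundant and SOX10 was at 2 reads in all resistant and 3 reads in all control libraries.

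SOX4, a factor of progenitor cells that is often raised in carcinomas, lies on chromosome 6 from 21592768 to 21598619 (GRCh38, ENSG00000124766). It was at 1308, 1299 and 1337 normalized reads in resistant libraries, against 438, 457 and 415 in control libraries. Every resistant library was above every control library, and the resistant values lay within a narrow range that included resistant 1. The log2 fold change was 1.59 ± 0.08 SE (adjusted p = 4.05e-14). SOX4 overlaps ENSG00000283480 on the opposite strand, and the counting is not stated to use strand.

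SOX9, which drives cartilage formation and marks progenitors of the branching lung, lies on chromosome 17 from 72121020 to 72126420 (ENSG00000125398). It was at 2065, 2018 and 2171 in resistant libraries, against 1217, 1257 and 1202 in control libraries. The groups did not overlap, and the log2 fold change was 0.77 ± 0.07 SE (adjusted p = 1.29e-09). SOX9-AS1, a noncoding gene that overlaps it on the opposite strand, had 7.09 ± 3.71 normalized reads in resistant and 4.63 ± 2.85 in control libraries, not past the threshold.

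SOX12 was at 2411, 2028 and 1999 in resistant libraries, against 2228, 2343 and 1997 in control libraries, so the groups overlapped. Its log2 fold change was -0.03, with a 95% interval from -0.19 to 0.13 (adjusted p = 0.784). Per kilobase of gene length, the level of SOX4 was 225 normalized reads in resistant and 74.7 in control libraries, that of SOX12 463 and 473, and that of SOX9 530 and 311. SOX9 was thus the highest SOX gene per kilobase in resistant libraries and SOX12 in control libraries.

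SOX13, a group D gene first known as an autoantigen, was at 294, 306 and 360 in resistant libraries, against 450, 471 and 406 in control libraries. The groups did not overlap, and it fell by 0.47 on the log2 scale (SE 0.10, adjusted p = 0.000574). SOX6, of the same group, had 7.58 ± 3.35 in resistant and 9.37 ± 2.19 in control libraries and was not called (95% interval of the log2 fold change -1.25 to 0.60).

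SOX2, a factor of airway progenitors and pluripotent cells, had no reads in any resistant library, against 9.24, 9.35 and 5.78 normalized reads in control libraries. Set against a floor of 3 reads over the 3 resistant libraries together, it was 8.28-fold lower in the resistant line (limma adjusted p = 0.000118). This fold leaves out the counting error of the control reads and is no bound. SOX2 lies inside SOX2-OT on the same strand, so reads could be split between the genes; the longer gene had 2.54 ± 1.86 in resistant and 1.99 ± 0.927 in control libraries. SOX21, a relative of SOX2 from group B, also had no reads in any resistant library, against 2.05, 2.08 and 4.82 in control libraries. Against the same floor SOX21 was 3.10-fold lower, again no bound (limma adjusted p = 0.0207). SOX2 and SOX21 passed the filter only through the control libraries and so had to differ. Their p-values do not take this into account. The SOX21 call rests on 9 reads and ended with DESeq2 on the recovered reads and with a pseudocount of 0.01.

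SOX30, a gene of male germ cells, was at 0, 3.69 and 0.987 in resistant libraries, against 10.3, 3.12 and 15.4 in control libraries. The groups overlapped, since control 2 lay below resistant 2. With 5 reads against 29 in all, the ratio was 0.167 (95% interval 0.0504 to 0.435, counting error only). The fall was called at a log2 fold change of -2.12 (limma adjusted p = 0.0109). The SOX30 call ended with a pseudocount of 0.01, with limma without trend and without control 1 or control 3. SOX2, SOX21 and SOX30 were the SOX falls that left the test or lost their calls with the processing. The count of 4 falls was 1 without control 1 and 2 without control 2 or without control 3. Without control 3 the falls were SOX13 and SOX18, and SOX18 was not among the 4.

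The remaining SOX genes did not pass the test and were near the detection limit or low. SOX15 averaged 34.0 ± 5.60 in resistant and 40.9 ± 9.26 in control libraries. SOX18 and SOX7, group F genes known from endothelium, were at 12.6 ± 1.32 and 3.63 ± 3.03 in resistant libraries, against 19.8 ± 11.2 and 6.51 ± 5.21 in control libraries. SOX18 was called lower without control 3, whose 7.71 lay below every resistant library. At these depths the 95% intervals were wide, from -1.27 to 0.41 for SOX18 and from -1.96 to 0.83 for SOX7.

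**Figure D2:**
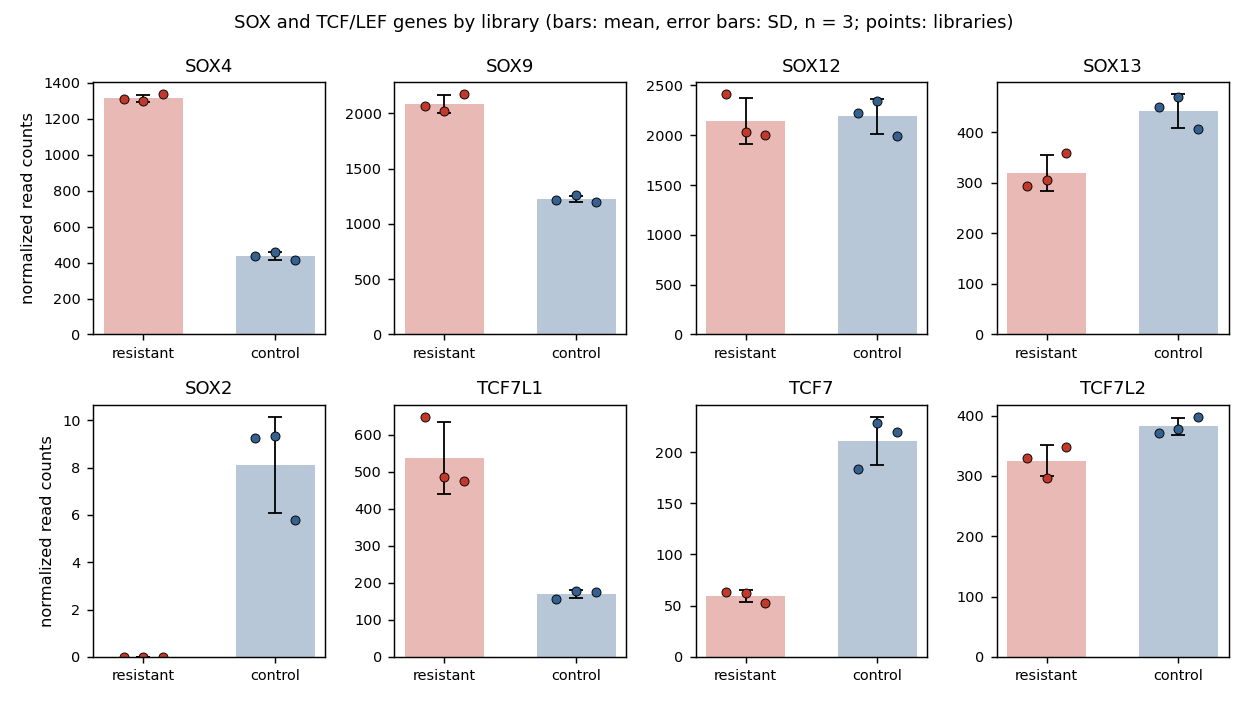
Normalized read counts (vertical axes, each from 0) of SOX4, SOX9, SOX12, SOX13, SOX2, TCF7L1, TCF7 and TCF7L2 in 3 resistant and 3 control libraries; bars are means, error bars SD and points libraries. SOX4, SOX9 and TCF7L1 are higher in each resistant library, SOX13, SOX2, TCF7 and TCF7L2 are lower in each, and SOX12 overlaps between the groups.

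The TCF/LEF genes moved apart: TCF7L1 rose 3.16-fold, TCF7 fell to 0.282 of its control level, and TCF7L2 missed the threshold. TCF7L1 mostly represses Wnt targets, TCF7 is known from T cells and as a Wnt effector, and TCF7L2 is the main effector in the gut. Their HMG boxes are printed with capitals at bases that differ from SOX4, as above, because nearly identical boxes stood beside opposite changes in level.
TCF7L1: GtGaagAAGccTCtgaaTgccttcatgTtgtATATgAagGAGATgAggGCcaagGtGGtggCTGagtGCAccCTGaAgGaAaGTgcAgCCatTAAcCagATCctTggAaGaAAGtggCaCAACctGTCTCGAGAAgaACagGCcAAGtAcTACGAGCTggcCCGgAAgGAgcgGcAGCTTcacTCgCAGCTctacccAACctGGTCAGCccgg
TCF7: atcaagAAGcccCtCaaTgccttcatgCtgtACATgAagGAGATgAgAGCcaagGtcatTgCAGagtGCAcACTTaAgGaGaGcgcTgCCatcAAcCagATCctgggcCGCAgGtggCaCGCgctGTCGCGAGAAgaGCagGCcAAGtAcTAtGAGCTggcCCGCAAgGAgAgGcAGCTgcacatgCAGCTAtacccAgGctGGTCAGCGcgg
TCF7L2: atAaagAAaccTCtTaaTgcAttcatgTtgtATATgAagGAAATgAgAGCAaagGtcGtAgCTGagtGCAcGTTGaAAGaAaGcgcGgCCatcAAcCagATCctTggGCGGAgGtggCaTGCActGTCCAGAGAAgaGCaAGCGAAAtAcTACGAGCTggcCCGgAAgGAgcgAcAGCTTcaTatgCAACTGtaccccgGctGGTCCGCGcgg

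The stretches are codons 346 to 416 of TCF7L1, 269 to 339 of TCF7 and 371 to 441 of TCF7L2. Over them TCF7 and TCF7L2 shared 98.6% of encoded residues, TCF7L1 and TCF7L2 93.0%, and TCF7 and TCF7L1 91.5%, while each shared 20 to 23 of 71 residues with SOX4. The counts are per gene, so isoforms with and without the beta-catenin binding end are not told apart.

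TCF7L1 lies on chromosome 2 from 85133410 to 85310388 (ENSG00000152284). It was at 649, 485 and 476 in resistant libraries, against 156, 179 and 174 in control libraries. Resistant 1 was the highest, and the lowest resistant library was still far above every control library. The log2 fold change was 1.64 ± 0.12 SE (adjusted p = 5.91e-11). TCF7 lies on chromosome 5 from 134114711 to 134151865 (ENSG00000081059) and overlaps SKP1 on the opposite strand. It was at 63.2, 62.8 and 52.3 in resistant libraries, against 184, 229 and 220 in control libraries. The groups did not overlap, and the log2 fold change was -1.81 ± 0.15 SE (adjusted p = 1.09e-09).

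TCF7L2 was at 330, 297 and 347 in resistant libraries, against 372, 377 and 398 in control libraries. Each resistant library was lower than each control library, but the log2 fold change of -0.24 (95% interval -0.44 to -0.03) had an adjusted p of 0.0562. It was called lower without resistant 1, without resistant 3, with median centring and with a minimum of 5. Per kilobase, TCF7L1 was at 121 normalized reads, TCF7L2 at 48.2 and TCF7 at 5.91 in resistant libraries. In control libraries TCF7L2 was highest at 56.8, with TCF7L1 at 38.5 and TCF7 at 20.9.

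Among 13 cofactors of TCF/LEF proteins, 4 rose and 3 fell, with a median fold change of 0.08 that turned to -0.06 with median centring. The counts of this and the other gene lists stand beside 20.4% higher and 21.1% lower over all tested genes. TLE4, a Groucho corepressor, rose to 492, 521 and 600 in resistant libraries, against 147, 161 and 135 in control libraries (log2 fold change 1.86, adjusted p = 2.42e-12). TLE5, a shorter relative, also rose (0.23, a call that ended with median centring and with limma without trend), and TLE1, TLE2 and TLE3 did not pass the test. CTNNB1, which encodes beta-catenin, fell by 0.57 on the log2 scale, with 4012, 4276 and 4450 in resistant libraries against 6364, 6161 and 6315 in control libraries. PYGO1, a coactivator of the complex, rose (0.66) and its relative PYGO2 fell (-0.27, a call that ended with limma without trend). CTBP2, a corepressor, fell (-0.36). BCL9L, which bridges beta-catenin and PYGO, rose by 0.29, a call that ended with median centring and with limma without trend.

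Of 12 tested genes from a list of Wnt and TCF/LEF targets, 3 rose and 7 fell, with a median of -0.43. The 3 that rose were AXIN2, SP5 and NKD1. AXIN2, a scaffold of the beta-catenin destruction complex, was at 212, 203 and 223 in resistant libraries, against 53.4, 74.8 and 53.0 in control libraries (log2 fold change 1.82, adjusted p = 1.77e-09). SP5, a zinc finger factor, was at 129.5, 149.5 and 140.1 against 60.6, 71.7 and 49.2 (1.21, adjusted p = 3.17e-06). NKD1, an inhibitor of Dishevelled, rose to 43.7 ± 13.5 against 21.0 ± 6.24, a call that ended without resistant 3 and with limma without trend. Among those that fell, CCND1, which encodes cyclin D1, was at 1225 ± 76.8 against 5404 ± 133, CD44 at 8318 ± 394 against 17090 ± 70.6 and MYC at 49712 ± 2212 against 60514 ± 837. The others that fell were DKK1, a secreted Wnt inhibitor (-0.71), NKD2, the paralog of NKD1 (-0.74), TNFRSF19 (-0.57) and ZNRF3, a ligase that removes Wnt receptors (-0.23). The NKD2 call ended with limma without trend and without resistant 3 or control 2. The TNFRSF19 call ended with limma without trend, with DESeq2 on the recovered reads and without resistant 2, resistant 3, control 1 or control 2. The ZNRF3 call ended with quantile normalization, no filter, a pseudocount of 0.01, limma without trend and DESeq2. It also ended when any single library other than resistant 3 was left out.

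The SP5 promoter is printed because it held the letters CTTTGA, a core of TCF/LEF sites, 3 times counting both strands, beside its rise. The window is the 250 bases before the start of transcription, chr2:170715087-170715336 on the plus strand, from RefSeq on GRCh38.p14. Capitals mark CTTTGA or its complement TCAAAG and, once, ATTGT, the complement of the SOX core ACAAT.
SP5: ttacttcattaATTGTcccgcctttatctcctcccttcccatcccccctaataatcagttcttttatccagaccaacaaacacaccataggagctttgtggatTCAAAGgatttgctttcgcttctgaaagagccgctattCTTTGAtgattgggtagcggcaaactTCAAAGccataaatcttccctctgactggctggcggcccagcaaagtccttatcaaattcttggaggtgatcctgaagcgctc

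CTTTGA or its complement was found in 11.36% of 27305 promoter windows of this length, and in 2 of the 6 list targets that had a window, SP5, which rose, and DKK1, which fell. The matches in SP5 began 147, 109 and 83 bases before the start. Of the members, 29 of 38 had a window; HMGXB3 alone held CTTTGA, and HMGB1, SOX6, SSRP1 and TCF7L2 held ACAAT or its complement, which 25.25% of all windows held. A match describes letters and not a bound site.

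Genes that SOX9 is known to activate in cartilage were mostly low, with a few rises. Of 6 tested matrix genes, 4 rose and 0 fell, with a median fold change of 1.21; with quantile normalization, with median centring or without resistant 1, 3 rose. MATN3, a cartilage matrix protein gene at 87.2 ± 4.13 against 63.6 ± 12.9, was called at an adjusted p of 0.0484 and lost its call under 11 alternatives. COL11A2, a chain of collagen XI, was at 329, 322 and 315 in resistant libraries, against 47.2, 64.4 and 47.2 in control libraries (log2 fold change 2.60, adjusted p = 1.10e-12). COL9A2 was at 33.7, 25.8 and 39.5 against 9.24, 12.5 and 11.6. COL2A1, the collagen of cartilage, was at 4.22 ± 1.50 against 0.664 ± 0.575. Its call ended with edgeR and with DESeq2 on the recovered reads, and with pseudocounts of 0.1 and 0.01. Leaving out resistant 2, resistant 3 or control 2 also ended the call. COL2A1 was at 3.06, 3.69 and 5.92 in resistant libraries, and at 1.03, 0 and 0.964 in control libraries. COL2A1 passed the filter through the resistant libraries, so its place among the rises was favoured in advance. ACAN and HAPLN1 were at 1.04 or below in every library. COL9A1 had no reads in any resistant library, against 1.03, 0 and 5.78 in control libraries, and was not tested.

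Airway basal and squamous genes, with which SOX2 is expressed in the proximal airway, fell for 4 and rose for 2 of 9 tested, with a median of -0.91. KRT14, a basal keratin among the 4, passed the filter only through the control libraries and so had to differ. TP63, the basal cell factor, was at 55.1, 65.5 and 59.2 in resistant libraries, against 264, 223 and 237 in control libraries. PITX1, a homeobox factor (log2 fold change -0.91), and SERPINB3, a squamous serpin that may share reads with its close copy SERPINB4 (-2.30), also fell. TRIM29 went against these, at 93.8 ± 16.3 in resistant libraries against 2.35 ± 1.15 in control libraries, and FGFR3 rose by 1.38. KRT5, KRT6A and DSG3, which define basal and squamous cells, were near 0 in both groups.

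Among the architectural HMGB genes, HMGB1 and HMGB3 fell and HMGB2 missed the threshold. HMGB1, an abundant DNA-bending protein that also acts as a danger signal outside cells, was at 1818, 1937 and 1848 in resistant libraries, against 2863, 2804 and 3138 in control libraries (log2 fold change -0.65 ± 0.07 SE, adjusted p = 1.89e-08). HMGB3 was at 403, 477 and 449 against 716, 723 and 785 (-0.74, adjusted p = 1.69e-07). HMGB2 was at 2330, 1891 and 1893 against 2141, 2348 and 2458, with resistant 1 inside the control range. Its log2 fold change was -0.19 (adjusted p = 0.06), and it was called lower without resistant 1, without control 1, with median centring and with no filter.

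HMGB1 has 48 pseudogene copies in GENCODE 29 and HMGB3 has 29, so their reads can be split among near-identical loci. The 19 HMGB1 pseudogenes listed in the tables together held 414 to 485 normalized reads in resistant and 685 to 772 in control libraries. Of these HMGB1P6 held the most, at 250 in resistant and 440 in control libraries. The 8 HMGB3 pseudogenes listed held 19.4 to 20.7 in resistant and 9.35 to 17.3 in control libraries. Genes for receptors of HMGB1 rose for 5 of 7 tested and fell for 0 (median 0.54). TLR4, which also senses bacterial lipopolysaccharide, was at 120, 127 and 134 in resistant libraries, against 24.6, 13.5 and 15.4 in control libraries. TLR2 and CD24 rose by 0.54 and 0.78. The call of AGER, another that rose (0.54), ended with median centring, with quantile normalization and with DESeq2 on the recovered reads. It also ended without resistant 1, control 1 or control 2. TLR9, the remaining rise, was at 3.06, 5.54 and 2.96 in resistant libraries, against 1.03, 0 and 0 in control libraries. It passed the filter through the resistant libraries, so its place among the rises was favoured in advance. The TLR9 call ended with DESeq2 on the recovered reads, with a pseudocount of 0.01 and without resistant 2, control 2 or control 3.

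Genes of nucleolar, mitochondrial and replication-coupled HMG-box proteins fell. UBTF, which opens ribosomal genes for RNA polymerase I, was at 1245, 1306 and 1416 in resistant libraries, against 2213, 2321 and 1996 in control libraries (log2 fold change -0.72 ± 0.07 SE, adjusted p = 1.86e-08). Of 14 polymerase I genes, 8 fell and 2 rose, with a median of -0.39. POLR1F (-0.76), POLR1B (-0.69) and RRN3, the initiation factor (-0.47), fell. TAF1C (0.19) and POLR1D (0.26) were the members that rose, and both calls ended with median centring.

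TFAM, which packages mitochondrial DNA and starts its transcription, fell to 871, 979 and 1056 in resistant libraries, against 1351, 1361 and 1548 in control libraries (log2 fold change -0.55 ± 0.08 SE, adjusted p = 4.09e-06). Genes of mitochondrial DNA transcription and replication fell for 7 of 11 and rose for 0 (median -0.42). TWNK, the mitochondrial helicase, was at 264, 290 and 275 against 691, 629 and 673. POLG2, the accessory subunit of the mitochondrial polymerase, and TFB2M, the partner of TFAM at promoters, fell, with log2 fold changes of -0.89 and -0.76. POLG, the catalytic subunit, did not pass the test (0.10). The 13 mitochondrially encoded mRNAs fell for 11 and rose for 0, with a median of -0.67; with quantile normalization 7 fell and 1 rose. MT-CO3 (-1.24), MT-ND3 (-1.07) and MT-ND1 (-0.78), which encode respiratory chain subunits, fell. Mitochondrial genes held 5.33% to 5.66% of reads in resistant and 6.46% to 7.34% in control libraries.

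SSRP1, the HMG-box subunit of FACT, was at 2820, 2804 and 2848 in resistant libraries, against 3650, 3797 and 3548 in control libraries, a fall of small size (-0.38) with little spread. SUPT16H, its partner, fell by 0.64, with 2788, 3004 and 3335 against 4697, 4655 and 4859. Of 10 genes for SUPT16H and other histone chaperones, 6 fell and 2 rose (median -0.35). SUPT6H (-0.69) and ASF1B (-0.62) were among those that fell. Both that rose, ATRX (0.24) and HIRA (0.30), lost their calls with median centring. WDHD1, a replisome component (-0.29), and NSD2, a histone methyltransferase (-0.36), also fell. The WDHD1 call ended with limma without trend.

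Among other members with larger changes, TOX2, a lymphocyte regulator, was at 1035, 832 and 823 in resistant libraries, against 1581, 1562 and 1363 in control libraries (log2 fold change -0.75, adjusted p = 2.20e-07). HMGXB3 was at 962, 1010 and 988 against 1697, 1537 and 1552 (-0.69, adjusted p = 1.73e-08). Both had groups that did not overlap. TOX4 averaged 1352 ± 22.8 against 1380 ± 19.4 and was not called. TOX was at 1 read and TOX3 at 0 in all resistant libraries, against 1 and 6 reads in all control libraries, and neither was tested.

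Subunits of chromatin complexes moved in both directions. SMARCE1, the HMG-box subunit of BAF, was at 137, 98.8 and 93.7 in resistant libraries, against 167, 166 and 157 in control libraries (log2 fold change -0.59 ± 0.15 SE, adjusted p = 0.0028), with resistant 1 closest to the controls. PBRM1, the HMG-box subunit of PBAF, averaged 795 ± 116 against 767 ± 19.6 and was not called. Per kilobase, SMARCE1 was at only 5.87 normalized reads in resistant and 8.76 in control libraries, and PBRM1 at 82.3 and 79.5. Both overlap other genes on the opposite strand. Of 20 BAF and PBAF subunits without the box, 4 rose and 6 fell, against 20.4% higher and 21.1% lower among all tested genes. Their median of -0.05 turned to 0.05 with quantile normalization. With median centring 3 rose and 10 fell, with a median of -0.18. SMARCD3 was at 603, 586 and 535 in resistant libraries, against 192, 208 and 193 in control libraries, while its paralog SMARCD2 was at 792, 943 and 925 against 1728, 1847 and 1754. BRD9 (-0.54) and SMARCB1 (-0.40) fell, and SMARCA2 (0.51) and ARID2 (0.46, a call that ended with limma without trend) rose.

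HMG20B, an HMG-box subunit of the LSD1-CoREST demethylase complex, was at 4002, 3485 and 3253 in resistant libraries, against 2575, 2655 and 2402 in control libraries (log2 fold change 0.49 ± 0.07 SE, adjusted p = 6.33e-06). It was the highest member per kilobase in resistant libraries, at 928 normalized reads against 660 in control libraries, and overlaps MFSD12 on the opposite strand. Of 10 LSD1-CoREST genes, 7 rose and 0 fell, with a median of 0.45. GSE1, PHF21A and ZMYM2 rose by log2 fold changes of 0.87, 0.77 and 0.58. KDM1A, which encodes LSD1 itself, averaged 2125 ± 101 against 2115 ± 38.7 and was not called.

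**Figure D3:**
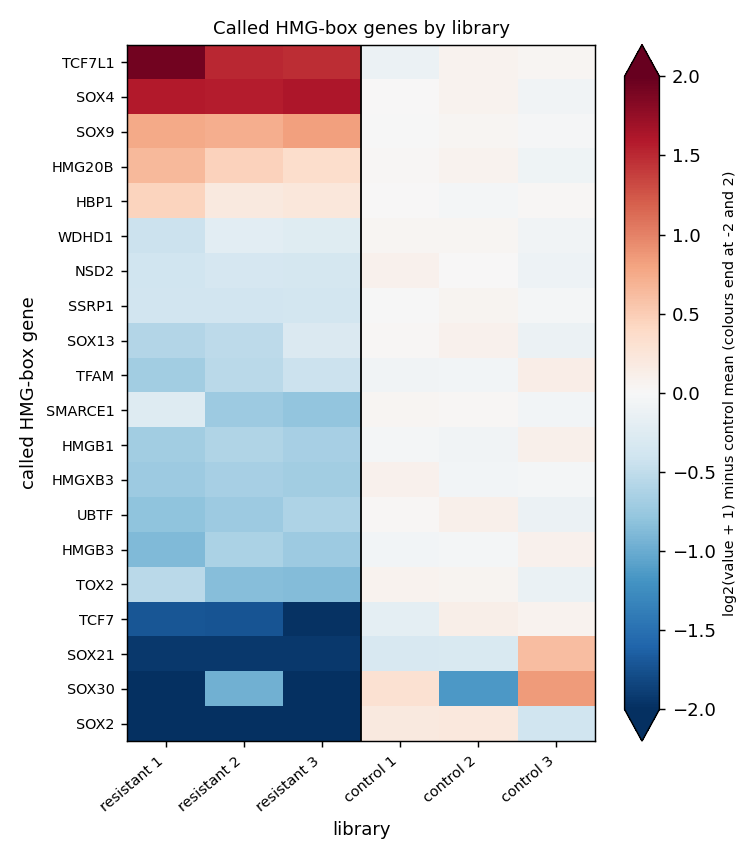
Log2(value + 1) of 20 of the 21 called HMG-box genes in each library minus the mean of the control libraries (colour, ending at -2 and 2), with 3 resistant libraries left of 3 control libraries. TCF7L1, SOX4 and SOX9 are the strongest rises in all resistant libraries; SOX30 is mixed within both groups, and SMARCE1 is weakest in resistant 1.

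CIC, a repressor that receptor signalling through ERK inactivates, did not pass the test, at 909, 852 and 909 in resistant libraries against 842, 875 and 733 in control libraries (log2 fold change 0.13, 95% interval -0.04 to 0.29, adjusted p = 0.221). CIC has 24 pseudogene copies in GENCODE 29, and the 13 listed in the tables held 232 to 381 normalized reads in resistant and 209 to 267 in control libraries, so its reads are uncertain; it was called higher with quantile normalization. Of 14 genes for CIC targets and partners, 12 fell and 1 rose, with a median of -1.03; all 12 that fell are targets. DUSP6, an ERK phosphatase, was at 151, 161 and 152 in resistant libraries, against 997, 1039 and 1100 in control libraries. SPRY4, a feedback inhibitor, was at 40.8, 41.5 and 51.3 against 423, 482 and 491, and DUSP4 fell by 2.48 on the log2 scale. ATXN1, a protein partner of CIC, rose by 0.30, a call that ended with median centring and with limma without trend. The CIC octamers TGAATGAA and TGAATGGA, on either strand, were in 2.25% of all promoter windows and in 0 of the 9 list genes that had one.

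HBP1, a repressor of cell cycle and Wnt target genes, was at 1210, 1021 and 1043 in resistant libraries, against 896, 868 and 910 in control libraries (log2 fold change 0.29, limma adjusted p = 0.0039). The HBP1 call ended with median centring and with limma without trend. BBX (-0.14, adjusted p = 0.129), HMGXB4 (0.16, adjusted p = 0.09) and PMS1, a mismatch repair relative (0.14, adjusted p = 0.308), did not pass the test. BBX was called lower with median centring and without resistant 3, HMGXB4 higher with quantile normalization and without resistant 1, and PMS1 higher without control 3. MEIOSIN, a gene of meiotic entry in mouse, had 14 reads in all resistant and 0 in all control libraries. Against a floor of 3 reads over the group it was 4.51-fold higher, leaving out the counting error of the 14 reads. Those reads came from resistant 2 and 3, with 0 in resistant 1, and the gene was below the filter.

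**Figure D4:**
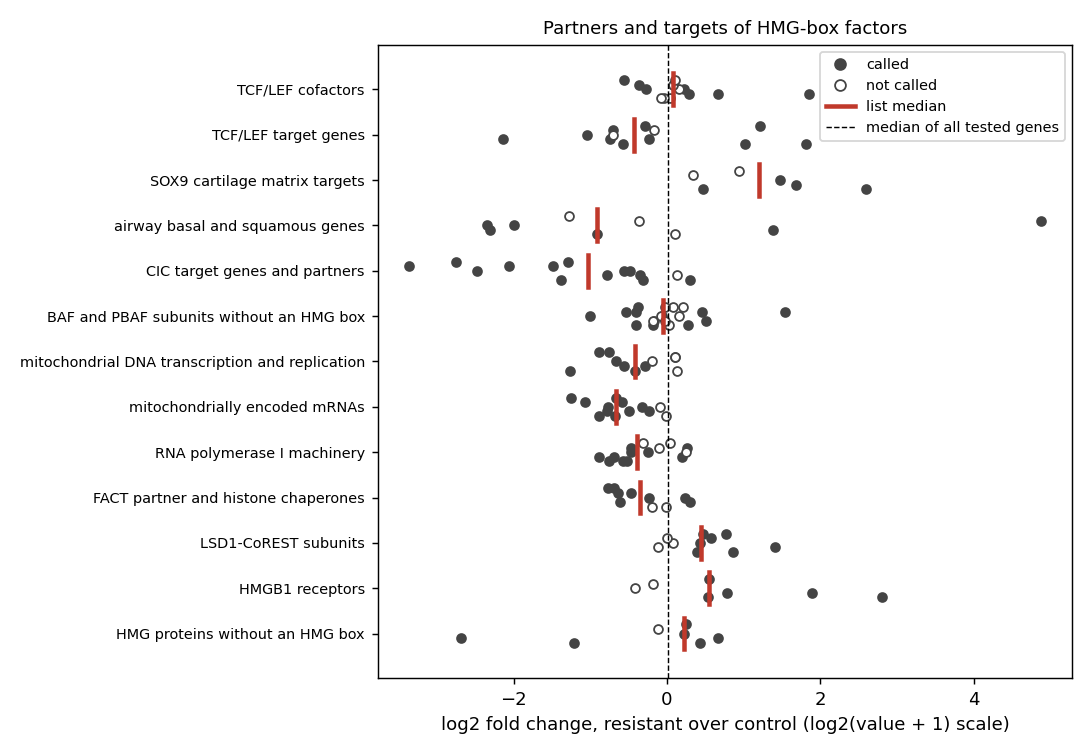
Log2 fold change (resistant over control, horizontal axis) of each tested gene in 13 lists of partners, targets and relatives of HMG-box factors, filled where called; red bars are list medians and the dashed line is the median of all tested genes, 0.01. CIC targets, mitochondrial and polymerase I genes lie mostly left of the line and LSD1-CoREST genes and HMGB1 receptors mostly right, while the medians of TCF/LEF cofactors and of BAF and PBAF subunits, 0.08 and -0.05, change sign with median centring or quantile normalization.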

How the data were processed

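The deposited tables hold, per library, a signal value for each of 30330 Ensembl genes with coordinates, biotype and transcription factor family, per the file headers. Per the submitters' processing notes, reads were placed on GRCh38. The aligner, counter and normalization tool are not given in the sources used here. All values (100%) were whole multiples of 1 number per library within 0.001 reads, so they are read counts divided by a size factor by the authors, and whole reads were recovered. Symbols came from an Ensembl table (23695 genes matched).

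Genes had to reach 1 in no fewer than 3 libraries and were tested as log2(value + 1) with limma 3.58.1 in R 4.3.3 (trend, robust, group as the sole term, two-sided, Benjamini-Hochberg over 24560 genes, threshold 0.05). Single-gene permutation tests cannot go below 0.1 with 3 against 3 and were not used. The pipeline was run on simulated data with no outlying library and with changes placed only in genes away from the detection limit. That run does not cover the calls of low genes or the distance of resistant 1. Counting intervals are exact (Clopper-Pearson), at 95%, and cover counting error only. The floor is 3 reads, and folds against it leave out the counting error of the other group. Alternatives were edgeR 4.0.16 and DESeq2 1.42.0 on recovered reads, other scalings, filters and pseudocounts, a replicate block and each library left out. The alternatives named beside a call are not always all that ended it.

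The members and gene lists were chosen with earlier results of these data known. Full values are given for called SOX and TCF/LEF genes and for other called members with an absolute log2 fold change of at least 0.58, and up to 3 genes per direction, those with the smallest adjusted p, are named from a list; further genes were chosen after their values were seen. In the deposited coordinates, 25 of 38 members overlap another listed gene, and strand use in counting is not stated. The values of 1 member and 1 coding stretch are not reported here. Coding stretches came from GENCODE 29 (Biopython 1.88) and promoters from RefSeq; all 38 members had the same coordinates in GENCODE 29.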

Additional observations from a re-analysis of the deposited data

How the results depend on the processing

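No tested member reversed its direction past the threshold under any of the 16 alternatives. SOX4, SOX9, SOX13, TCF7L1, TCF7, HMG20B, HMGB1, HMGB3, HMGXB3, UBTF, TFAM, TOX2, SSRP1, NSD2 and SMARCE1 kept their calls under all of them. Of 4 SOX falls, 2 were left with a minimum of 5 and 2 with a pseudocount of 0.01, since low genes leave the test or lose their calls. Leaving out 1 library gave 1 to 4 SOX falls, which without control 3 included SOX18, newly called lower. TCF/LEF falls numbered 2 instead of 1 with median centring and with a minimum of 5, and 1 to 2 without single libraries, through TCF7L2. Rises among other HMG-box genes were 3, against 5 with quantile normalization, 1 with median centring and 1 with limma without trend, and the cause was not tested. All HMG-box rises ranged from 5 to 7 and falls from 13 to 17 without single libraries. Over all genes, 5010 rose and 5194 fell, and median centring moved the share of calls that were higher to 35.8%, against 49.1%. Same-numbered libraries did not deviate together (correlations from -0.00148 to 0.00671). The correlations gave every tested gene equal weight, so noise in low genes could hide a pairing, and pairing is not excluded. With the replicate block, 6 members rose and 15 fell. Depth limits SOX2, SOX6, SOX7, SOX10, SOX18, SOX21, SOX30, TOX, TOX3 and MEIOSIN, with under 100 reads in all libraries.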

Other observations

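Proteins called HMG without an HMG box form separate families: HMGA proteins bind DNA through AT-hooks and HMGN proteins bind nucleosomes. Of 7 such genes, 4 rose and 2 fell, with a median log2 fold change of 0.22. HMGA2, an oncofetal factor, was at 117, 111 and 125 normalized reads in resistant libraries, against 773, 725 and 794 in control libraries (log2 fold change -2.69, limma adjusted p = 6.60e-16). HMGA1 fell to 3271 ± 86.4, against 7574 ± 211 in control libraries (SD, n = 3 each). HMGN5 (0.67), HMGN4 (0.43), HMGN3 (0.24) and HMGN1 (0.22) rose, and HMGN2 did not pass the test (-0.12). The HMGN1 and HMGN3 calls ended with median centring, which called HMGN2 lower.

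Of 4 noncoding genes named after members, TOX-DT, divergent to TOX, was at 1.02, 9.23 and 3.95 in resistant libraries, against 0, 0 and 0.964 in control libraries, and was called higher. It passed the filter only through the resistant libraries and so had to differ. The TOX-DT call ended with DESeq2 on the recovered reads, with limma without trend and with pseudocounts of 0.1 and 0.01. Leaving out control 1 or control 2 also ended the call. SOX21-AS1 had no reads in any resistant library and 3 reads in all control libraries.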
